A study of Emberiza melanocephala with 12 samples.

Results

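The 100 liver genes described here had higher transcript levels at ZT5, early in the light phase, than on average at the other times of day, in migratory as well as in non-migratory blackheaded buntings (*Emberiza melanocephala*). They were chosen by that difference. The study's own list of genes called cyclic named 4408 of the 18284 genes in the expression table, and 3301 of these exceeded 1 FPKM (mapped fragments scaled to gene length and to the mapped total of the library) in at least 10 of the 12 libraries. For each of the 3301, the ZT5 value in log2(FPKM + 1) minus the mean of the other 5 times was taken in each state, the smaller of the 2 differences was kept, and the 100 genes with the largest values, 3.03% of those ranked, became the members. The cyclic list was itself drawn from these libraries, so the differences between ZT5 and the other times are given as a description and carry no test.

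The 12 libraries were liver poly-A RNA of adult male buntings caught from a wild flock, with 6 libraries from the migratory (M) state and 6 from the non-migratory (nM) state. Birds of both states lived under 16 h of light and 8 h of darkness when sampled, at ZT1, ZT5, ZT9, ZT13, ZT17 and ZT21, where ZT0 is lights on and ZT17 and ZT21 fall in the dark. M birds were photosensitive animals moved from short to long days and kept there until they showed Zugunruhe, the night-time restlessness of caged migrants. nM birds were photorefractory animals that had stayed on long days, so seasonal history and state are the same variable here. Each library came from 1 bird, and the 6 times served as the 6 replicates of a state. Time, bird and library therefore cannot be told apart within a state, and a p-value between states measures the spread over times and birds together.

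The liver synthesises purines, methyl donors, fatty acids, bile acids and most plasma proteins, and in many vertebrates the transcripts of these pathways vary with time of day through the circadian clock, feeding and hormones. In birds the purine pathway has an added role, because nitrogen is excreted mainly as uric acid, a purine product. Migratory birds fatten before departure, and the liver is their main site of fatty acid synthesis.

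The ZT5 libraries were the deepest of each state. The M library of ZT5 held 28936186 reads, against 13795889 to 26323170 at the other M times, and the nM library of ZT5 held 42651754 reads, against 6874818 to 18837970 at the other nM times. The FPKM of M ZT5 summed to 2793013, against 1542831 to 1831363 at ZT1, ZT9, ZT13 and ZT21 in M, while nM ZT5 summed to 2107337, against 1520194 to 2505726. The part of depth and of these sums in the ZT5 levels was not tested. With FPKM rescaled to the same total, a scaling added after seeing the data, 85 of the 100 members stayed among the first 100. The differences were smaller there: the last of the first 100 genes had a smaller difference of 0.63, against 0.91 without rescaling. For the M library of ZT9 the study reported a lower base quality than for any other library, and its part in the ZT9 levels was not tested. The M library of ZT17 stood apart from all others. Its FPKM summed to 6988410, against 1520194 to 2793013 elsewhere. In it 8675 genes were listed at 0, against 6957 to 8089 elsewhere. The median of its rank correlations with the libraries of its own state was 0.80, against 0.90 to 0.96 in the rest. The nM ZT5 library was nearer to the M libraries (median rank correlation 0.93) than to its own state (0.90). It still matched its label for TTR-1, which was at 23.5 to 145 FPKM in M livers, against 10148 FPKM in the nM ZT5 library and 11403 to 39552 FPKM at the other nM times. Hepatocyte markers, TTR-1 among them, were abundant in every library, with a summed level of 26064 to 76429 FPKM in M and 49238 to 137569 FPKM in nM. The lowest nM sum was that of the ZT5 library, against 59041 to 137569 FPKM at the other nM times. 1 of the 17 hepatocyte markers measured, C3, was listed at 0 in at least 6 libraries. Markers of other cells were lower, and in bulk liver fewer cells of a type cannot be told apart from less RNA per cell.

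The ZT5 difference of the members had a median of 1.22 in M (0.91 to 4.24) and 1.57 in nM (0.92 to 5.64) on the log2 scale. Over all 3301 ranked genes the medians were 0.02 in M and −0.17 in nM. The nM difference was the larger of the pair in 75 members, both differences exceeded 1 in 78, and both exceeded 2 in 5. The lowest value of a member in any library was 0.228 FPKM and the highest 170909 FPKM. None was listed at 0 in any library, and 89 exceeded 1 FPKM in all 12.

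**Figure D1:**
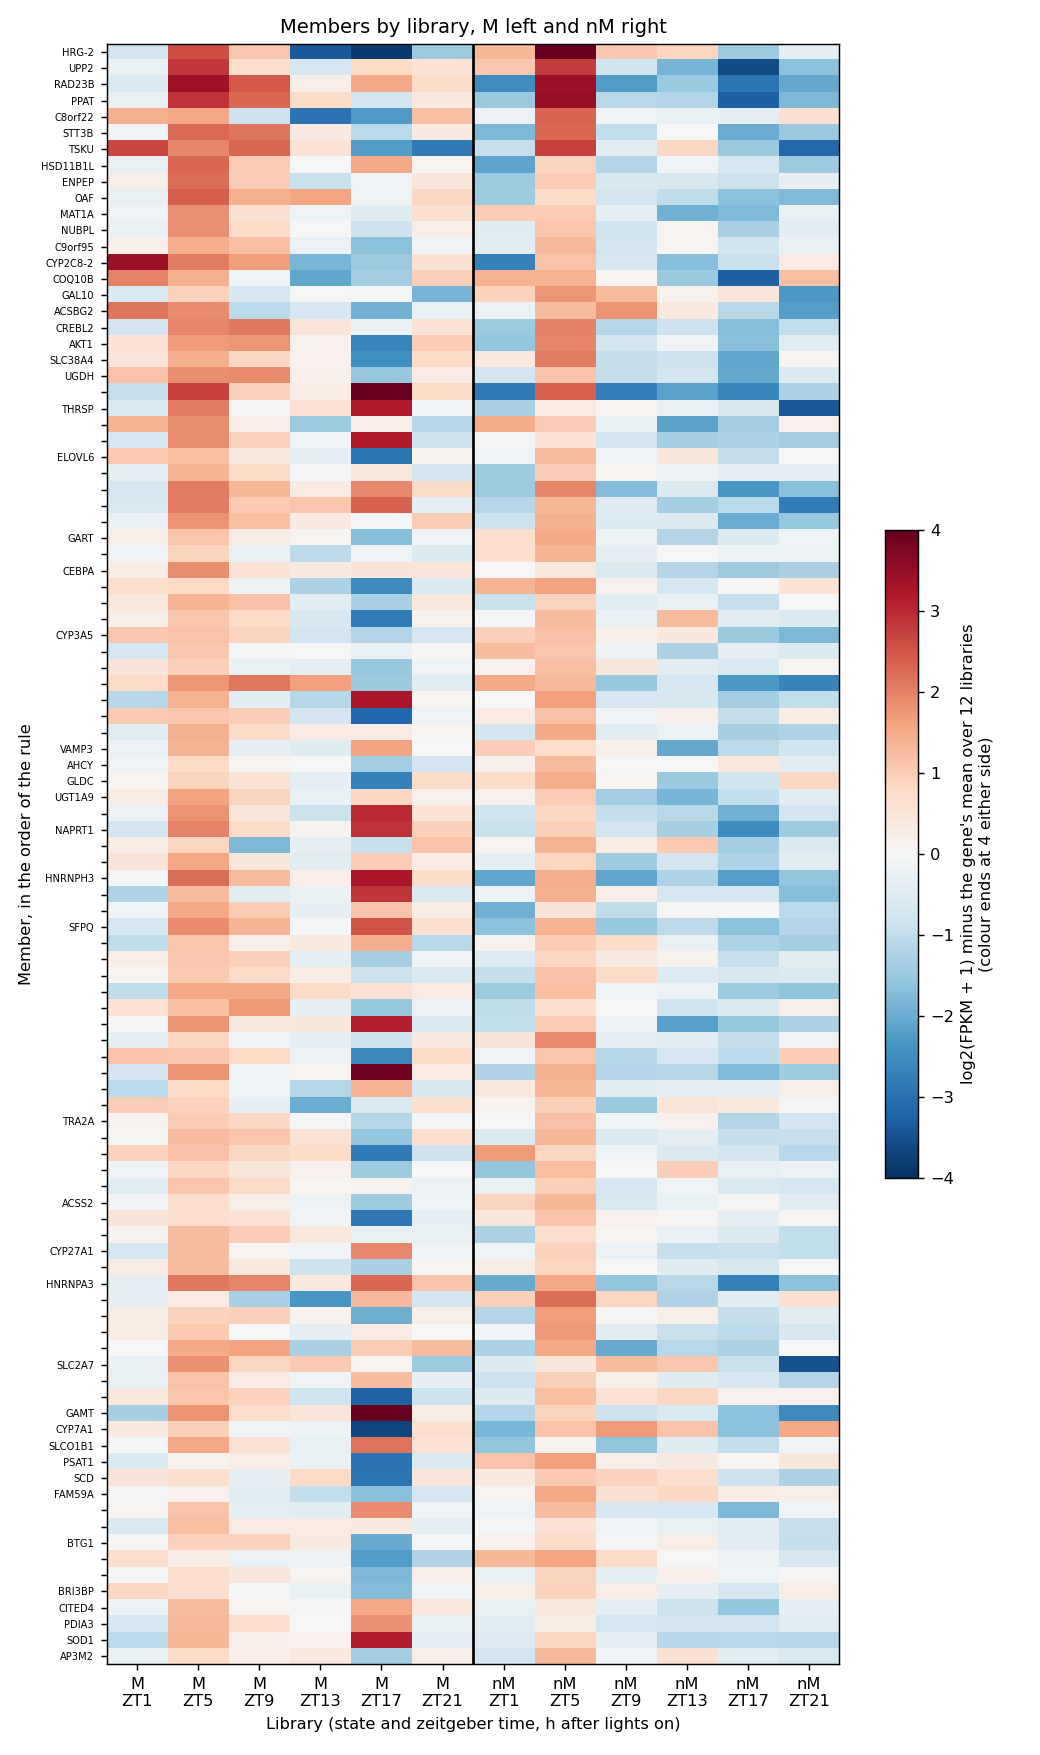
Level of each of the 100 members in each library, as log2(FPKM + 1) minus that gene's mean over the 12 libraries (colour), with 1 row a gene in the order of the rule (named where in the first 20, in a function list, called or next to the threshold) and the 6 M and then the 6 nM libraries in columns. ZT5 is the highest M column for 57 members and the highest nM column for 90. The M ZT17 column holds the highest M value of 25 members, beside 38.2% of the ranked genes.

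The label "highest at ZT5" held for part of the members only, because the rule set ZT5 against a mean. ZT5 was the highest time in both states for 51 members, in M for 57, in nM for 90, and in neither for 4. Of the 3301 ranked genes, 9.69% were highest at ZT5 in M, 19.9% in nM, and 146 genes in both. In M, 25 members were highest at ZT17, 8 at ZT1, 8 at ZT9, 1 at ZT13 and 1 at ZT21. The shares of the ranked genes at these times were 38.2%, 27.2%, 11.5%, 6.54% and 6.76%, in the same order. In nM, 6 were highest at ZT1, 3 at ZT9 and 1 at ZT13, beside 26.3%, 9.57% and 12.4% of the ranked genes. In the M ZT17 library the 6 erythroid markers measured summed to 5908 FPKM, against 256 to 1126 FPKM at the other M times and 153 to 514 FPKM in nM. Lymphocyte markers summed to 478 FPKM in it, against 67.1 to 134 FPKM at the other M times and 47.1 to 239 FPKM in nM. Muscle markers summed to 276 FPKM, against 42.1 to 72.1 FPKM, but ranged from 34.6 to 515 FPKM in nM. Endothelial markers summed to 200.4 FPKM, against 62.0 to 81.6 FPKM and 60.9 to 94.6 FPKM in nM. Macrophage markers (198 FPKM) and stellate cell and fibroblast markers (162 FPKM) were at their lowest M sums in this library. The part of these cells in the ranks was not tested. With that library left out, ZT5 was the highest M time for 82 members and the highest in both states for 75. The same threshold applied to the other times was reached by 102 ranked genes at ZT1, 11 at ZT9, 17 at ZT13, 72 at ZT17 and 32 at ZT21, so genes raised at 1 time in both states were also found elsewhere in the day.

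The median level of the members at ZT1, ZT5, ZT9, ZT13, ZT17 and ZT21 was 5.61, 6.97, 6.25, 5.16, 5.37 and 5.66 in M, and 5.13, 6.81, 5.03, 4.996, 4.11 and 4.50 in nM, all in log2(FPKM + 1). The ranked genes as a whole stayed between 4.02 and 4.43. The ZT5 medians of the 2 states lay close together, and the states parted at ZT9 and at the dark times, where the members were lower in nM.

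**Figure D2:**
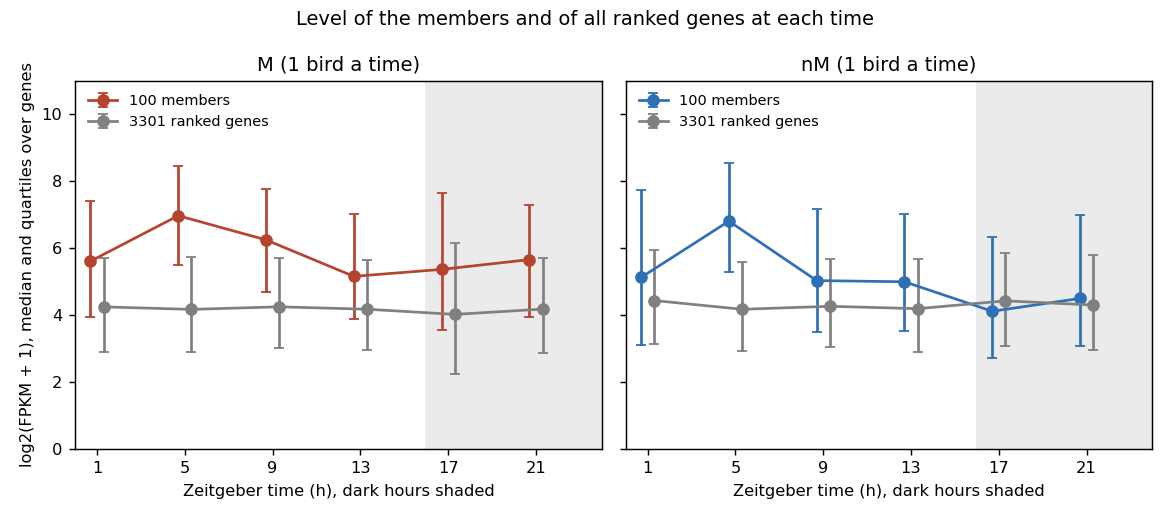
Median log2(FPKM + 1) of the 100 members and of the 3301 ranked genes against zeitgeber time in hours, with M and nM in separate panels, quartiles over genes as bars and the dark hours shaded. The members peak at ZT5, at 6.97 in M and 6.81 in nM, while the ranked genes remain between 4.02 and 4.43 at every time.

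The member with the largest smaller difference was HRG-2, whose symbol is shared with the plasma protein histidine-rich glycoprotein. At ZT1 to ZT21 in M it was at 107, 1095, 390.4, 16.9, 11.9 and 67.0 FPKM, and in nM at 458, 3839, 386, 331, 66.6 and 139 FPKM. ZT5 stood above every other time in both states, with differences of 4.24 in M and 4.10 in nM. Its lowest values were at ZT17, in the dark, in both.

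Enzymes of purine and pyrimidine metabolism were prominent near the top of the list. PPAT, which catalyses the first committed step of purine synthesis, was at 65.1, 600.3, 397, 134, 46.9 and 107 FPKM at ZT1 to ZT21 in M. In nM it was at 27.6, 899, 36.7, 34.5, 7.46 and 22.2 FPKM. In M the ZT9 library was also high, while in nM ZT5 stood alone, and the differences were 2.41 in M and 5.24 in nM. GART, which catalyses several later steps of the same pathway, was at 381, 699, 398, 354, 99.8 and 299.9 FPKM in M. In nM the GART values were 527, 933, 284, 143, 221 and 292 FPKM. Its ZT5 value was the highest of either state, but the gap to the other times was smaller than for PPAT, at 1.34 in M and 1.80 in nM. UPP2, a uridine phosphorylase that breaks uridine down to uracil, was at 18.2, 165, 36.8, 13.7, 39.7 and 33.1 FPKM in M and at 48.1, 161, 12.5, 5.45, 0.964 and 6.43 FPKM in nM. The ZT5 levels of UPP2 were nearly equal between the states, whereas its nM levels from ZT9 on were below those of M. PPAT, GART and UPP2 were all highest at ZT5 in both states.

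**Figure D3:**
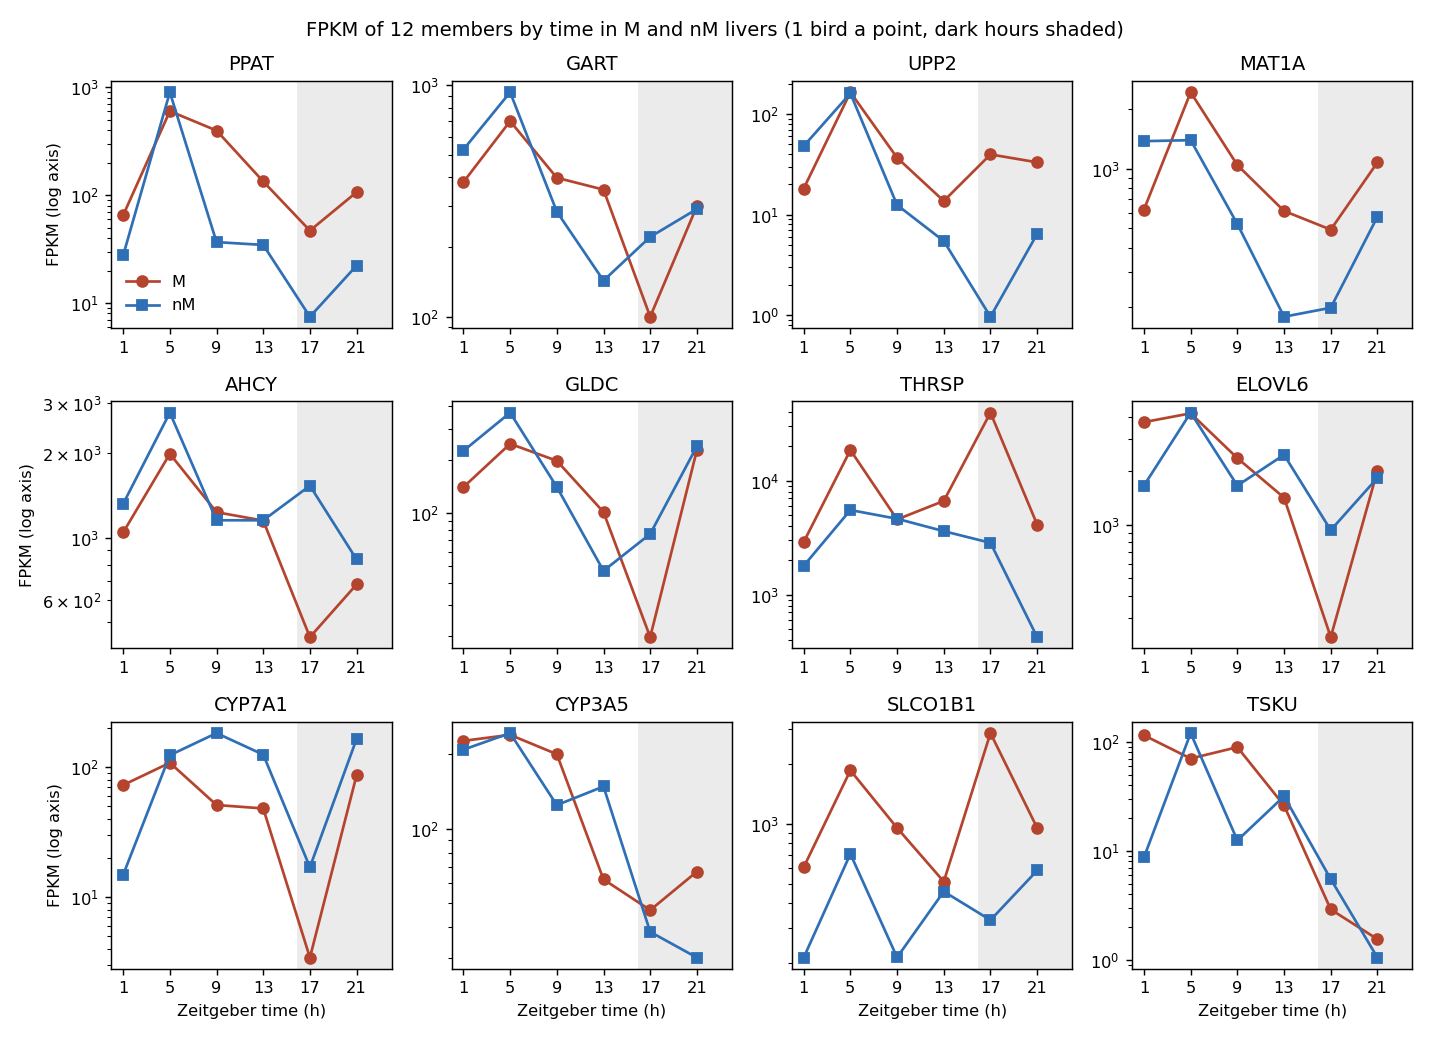
FPKM, on a log axis, against zeitgeber time in hours for 12 members with roles in purine and uridine, methyl group and glycine, lipid, bile acid and drug metabolism and for TSKU, with 1 line for M and 1 for nM and 1 library a point. PPAT reaches 600.3 FPKM in M and 899 FPKM in nM at ZT5, and CYP7A1 in nM is one of the courses whose highest value (183 FPKM at ZT9) is not at ZT5.

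Enzymes that handle methyl groups, glycine and serine formed a second set. MAT1A, the liver enzyme that makes S-adenosylmethionine, was at 622, 2426, 1042, 612, 492 and 1074 FPKM at ZT1 to ZT21 in M and at 1375, 1391, 526, 179, 199 and 572 FPKM in nM. In nM its ZT1 and ZT5 values were nearly the same, so the peak was broader there. AHCY, which hydrolyses S-adenosylhomocysteine, was at 1983 FPKM at ZT5 in M, against 443 to 1231 FPKM at the other M times, and at 2775 FPKM at ZT5 in nM, against 836 to 1528 FPKM. Its ZT5 value exceeded all others in both states. GLDC, the glycine decarboxylase of the glycine cleavage system, was at 246 FPKM at ZT5 in M, against 19.8 to 226 FPKM, and at 369 FPKM at ZT5 in nM, against 47.02 to 238 FPKM. For GLDC the next highest time was ZT21 in both states. PSAT1, an enzyme of serine synthesis, was at 513 FPKM at ZT5 in M, slightly under its ZT9 value of 556 FPKM, and at 1466 FPKM at ZT5 in nM, against 493 to 1038 FPKM. GAMT, the last enzyme of creatine synthesis, was at 262 FPKM at ZT5 in M, where the ZT17 library held 1215 FPKM and the rest 29.5 to 123 FPKM. In nM GAMT was at 140.1 FPKM at ZT5, against 12.2 to 48.9 FPKM, so its M course had a different maximum from its nM course. GCH1, the first enzyme of tetrahydrobiopterin synthesis, the GABA transaminase ABAT and C10orf65 (HOGA1), an enzyme of hydroxyproline breakdown, brought the set to 8, of which 5 were highest at ZT5 in M and all 8 in nM.

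Members that make or carry cofactors were highest at varied times in M. C9orf95, a nicotinamide riboside kinase of NAD synthesis, was at 115 FPKM at ZT5 in M, against 12.4 to 95.3 FPKM, and at 103 FPKM at ZT5 in nM, against 23.3 to 44.3 FPKM. COQ10B, a coenzyme Q binding protein of mitochondria, was highest at ZT1 in both states, with 168 FPKM at ZT1 and 113 FPKM at ZT5 in M, and 110.4 FPKM at ZT1 and 109.8 FPKM at ZT5 in nM. It was high at ZT21, ZT1 and ZT5 in both states. NAPRT1, which starts NAD synthesis from nicotinic acid, PANK1, a pantothenate kinase of coenzyme A synthesis, MOSC1, a molybdenum enzyme, and BLVRA, a biliverdin reductase, were also in this set of 6, of which 3 were highest at ZT5 in M and 5 in nM.

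Members of fatty acid synthesis were among the most abundant. THRSP (Spot 14), a regulator of fatty acid synthesis, was at 2891, 18531, 4561, 6625, 39454 and 4110.4 FPKM at ZT1 to ZT21 in M and at 1787, 5511, 4620.3, 3598, 2842 and 422 FPKM in nM. The M maximum lay in the outlying ZT17 library, and ZT5 was the next highest. ELOVL6, which elongates long-chain fatty acids, was at 3734, 4183, 2350.2, 1413, 235 and 1998 FPKM in M and at 1652, 4217, 1651, 2454, 931 and 1823 FPKM in nM. Its ZT5 levels were nearly equal in the 2 states, and its lowest value was at ZT17 in both. SCD, the stearoyl-CoA desaturase, was at 5359 FPKM at ZT5 in M, against 452 to 5960.3 FPKM at the other times, and at 7089 FPKM at ZT5 in nM, against 1444 to 6557 FPKM. SCD was high at most light times, but in M it was also at 4778 FPKM at ZT21, in the dark, above 2610 FPKM at ZT9. Its lowest values were in the outlying ZT17 library in M and at ZT21 in nM. The ZT5 differences of SCD were 0.95 in M and 1.06 in nM. ACSS2, which makes acetyl-CoA from acetate, was at 248 FPKM at ZT5 in M, against 56.0 to 179 FPKM, and at 379.6 FPKM at ZT5 in nM, against 98.2 to 279 FPKM. ACSBG2, an acyl-CoA synthetase, was highest at ZT1 in M (1151 FPKM, with 976 FPKM at ZT5) and at ZT9 in nM (907 FPKM, with 636 FPKM at ZT5). It was thus 1 of the 4 members that were highest at ZT5 in neither state. ACSF2, HACL1, ACAD11-1 and PECR, enzymes of fatty acid activation, oxidation and reduction, brought the set to 9, of which 4 were highest at ZT5 in M and 7 in nM.

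Members of oxidation, conjugation and bile acid metabolism were the largest set of enzymes. CYP7A1, the rate-limiting enzyme of bile acid synthesis, was at 72.999, 108, 51.3, 48.3, 3.43 and 87.1 FPKM at ZT1 to ZT21 in M and at 14.9, 124, 183, 125, 17.05 and 166 FPKM in nM. In nM it was low at ZT1 and ZT17, and its ZT5 value lay under those of ZT9 and ZT21 and just under that of ZT13. CYP27A1, a sterol hydroxylase of the same pathway, was at 721 FPKM at ZT5 in M, where ZT17 held 1174 FPKM and the other times 187 to 325 FPKM. In nM CYP27A1 was at 586 FPKM at ZT5, against 154 to 271 FPKM. SLCO1B1, a carrier that takes bile acids and other organic anions up from blood, was at 608, 1862, 957, 515, 2864 and 957 FPKM in M and at 214, 709, 214, 459, 329.8 and 585 FPKM in nM. All M values but that of ZT13 lay above the nM values other than that of ZT5.

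CYP3A5, a drug- and steroid-oxidising cytochrome P450, was at 227, 240.0, 200.4, 62.3, 46.8 and 67.0 FPKM at ZT1 to ZT21 in M and at 209, 244, 125, 148, 38.2 and 30.0 FPKM in nM. It was high at ZT1 and ZT5 and low in the dark in both states. CYP2C8-2 was highest at ZT1 in M (2569 FPKM, with 988 FPKM at ZT5) and at ZT5 in nM (526 FPKM, against 35.1 to 297 FPKM). UGDH, which makes UDP-glucuronic acid for conjugation, was at 74.9 FPKM at ZT5 in M, against 6.31 to 75.2 FPKM, and at 44.995 FPKM at ZT5 in nM, against 4.03 to 13.1 FPKM. UGT1A9, a glucuronosyltransferase, was at 582 FPKM at ZT5 in M, against 159 to 358 FPKM, and at 379 FPKM at ZT5 in nM, against 52.1 to 214 FPKM. For UGDH and UGT1A9 the nM ZT5 value was clear of the other nM times. HSD11B1L, an 11-beta-hydroxysteroid dehydrogenase-like protein, was at 127 FPKM at ZT5 in M, against 20.2 to 72.5 FPKM, and at 47.3 FPKM at ZT5 in nM, against 5.05 to 23.2 FPKM. Reads of the CYP2C, CYP3A and UGT1A families can be shared between near-identical copies, so the levels of these members are uncertain. The aldehyde dehydrogenase ALDH3A1, the alcohol dehydrogenase ADH5, cytochrome b5 (CYB5A) and superoxide dismutase 1 (SOD1) completed a set of 12, of which 7 were highest at ZT5 in M and 11 were in nM.

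2 members were solute carriers of the lists used here besides SLCO1B1. SLC38A4, a carrier of neutral and cationic amino acids, was at 168, 333, 216, 134, 21.3 and 212 FPKM at ZT1 to ZT21 in M and at 158, 517, 62.4, 67.1, 27.7 and 127 FPKM in nM. ZT5 was the highest and ZT17 the lowest time in both states. SLC2A7, a hexose transporter, was at 327 FPKM at ZT5 in M, against 33.1 to 190.2 FPKM, and at 128 FPKM at ZT5 in nM, where ZT9 and ZT13 were higher, at 224 and 195 FPKM. The calcium and manganese pump ATP2C1 and the cation channel TMEM38A were the other transporters.

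RNA-binding members had larger ZT5 differences in nM than in M. HNRNPA3, a heterogeneous nuclear ribonucleoprotein, was at 42.3, 237, 216, 71.8, 269.9 and 121 FPKM at ZT1 to ZT21 in M and at 12.8, 160.1, 17.8, 24.8, 7.47 and 16.7 FPKM in nM. HNRNPH3, of the same protein class, was at 31.5, 159, 79.9, 39.2, 314 and 54.9 FPKM in M and at 7.04, 91.7, 7.05, 13.2, 6.27 and 10.3 FPKM in nM. For both, nM was high at ZT5 alone, at a level inside the M range. SFPQ, a nuclear RNA-binding protein of splicing, was at 6.33, 43.5, 29.9, 10.5, 67.3 and 17.7 FPKM in M and at 2.83, 30.7, 3.15, 4.83, 2.87 and 4.27 FPKM in nM. TRA2A, a splicing factor, was at 86.4 FPKM at ZT5 in M, against 18.4 to 74.8 FPKM, and at 95.1 FPKM at ZT5 in nM, against 18.2 to 47.4 FPKM. With ALKBH5, an RNA m6A demethylase, the ZT5 differences of the set of 5 ran from 1.01 to 1.22 in M and from 1.54 to 3.34 in nM, and 2 of the 5 were highest at ZT5 in M and all 5 in nM.

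Secreted proteins included the most abundant member. GAL10, an avian beta-defensin, was at 33355, 94829.6, 30998, 50804, 47456 and 13819 FPKM at ZT1 to ZT21 in M and at 95986, 170909, 121208, 54931, 69514 and 10304 FPKM in nM. ZT5 was the highest and ZT21 the lowest time in both states. TSKU, a secreted leucine-rich protein, was at 115, 70.1, 89.2, 26.1, 2.91 and 1.55 FPKM in M and at 8.73, 119.9, 12.5, 31.7, 5.52 and 1.05 FPKM in nM. In M it was high from ZT1 to ZT9 and low in the dark, and in nM ZT5 stood above all else. The copper protein ceruloplasmin (CP), a member of the hepatocyte marker list, and the selenium carrier selenoprotein P (SEPP1) belonged here too. In this set of 6, 2 were highest at ZT5 in M and 5 in nM.

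In the secretory pathway, STT3B, a catalytic subunit of the oligosaccharyltransferase, was at 9.51, 53.2, 48.7, 13.7, 4.40 and 13.6 FPKM at ZT1 to ZT21 in M and at 2.30, 55.3, 4.80, 10.4, 1.88 and 3.03 FPKM in nM. M livers were high at ZT5 and ZT9, and nM livers at ZT5 alone. VAMP3, a vesicle SNARE, was highest at ZT17 in M (365 FPKM, with 302 FPKM at ZT5) and at ZT1 in nM (236 FPKM, with 193 FPKM at ZT5). DHDDS, an enzyme of dolichol synthesis, the sialyltransferase ST3GAL2 and the disulfide isomerase PDIA3 were members as well, and 4 of this set of 6 were highest at ZT5 in M and 4 in nM.

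Among mitochondrial members, NUBPL, an assembly factor of complex I, was at 44.4 FPKM at ZT5 in M, against 6.16 to 21.5 FPKM, and at 26.4 FPKM at ZT5 in nM, against 4.20 to 12.97 FPKM. ZT5 was the highest time of NUBPL in both states. NDUFB2, a subunit of complex I, was at 151 FPKM at ZT5 in M, where ZT17 held 1030.2 FPKM, and at 117 FPKM at ZT5 in nM, against 2.19 to 8.53 FPKM. YME1L1, a mitochondrial protease, and BID, a pro-apoptotic protein that acts on mitochondria, were the other members of this kind.

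Regulators were a mixed set. RAD23B, a nucleotide excision repair protein that also binds ubiquitin, was at 6.26, 111, 57.0, 11.7, 29.5 and 16.6 FPKM at ZT1 to ZT21 in M and at 0.921, 112, 1.25, 2.79, 0.414 and 1.59 FPKM in nM. The ZT5 values were nearly equal, and every other nM value lay below every M value. CREBL2, a basic leucine zipper protein, was at 21.6 FPKM at ZT5 in M, just under 24.03 FPKM at ZT9, and at 22.6 FPKM at ZT5 in nM, against 0.789 to 2.30 FPKM. AKT1, a kinase of insulin signalling, was at 81.1 FPKM at ZT5 in M, against 3.21 to 84.8 FPKM, and at 97.1 FPKM at ZT5 in nM, against 6.95 to 22.03 FPKM. For both genes ZT9 was the highest M time, by a small margin, and ZT5 stood alone in nM. BTG1, an antiproliferative protein, was at 356 FPKM at both ZT5 and ZT9 in M, and at 313 FPKM at ZT5 in nM, against 96.5 to 226 FPKM. The hepatocyte transcription factor CEBPA, the mTOR inhibitor DEPDC6-1 (DEPTOR) and CITED4, a transcriptional co-regulator, also belonged to the regulators, of which 6 of 10 were highest at ZT5 in M and 9 of 10 in nM.

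A further 25 members had other roles or none assigned here. C8orf22 was at 1299, 1422, 275, 62.3, 100.4 and 1112 FPKM at ZT1 to ZT21 in M and at 414, 2471, 433, 399.8, 377 and 737 FPKM in nM, and so was high from ZT21 to ZT5 in M. ENPEP, the aminopeptidase that cleaves angiotensin II, was at 16.1 FPKM at ZT5 in M, against 0.978 to 6.16 FPKM, and at 6.38 FPKM at ZT5 in nM, against 0.333 to 1.89 FPKM. Both states showed a clear ZT5 maximum for it. The ZT5 differences of these 25 ran from 0.92 to 2.23 in M and from 0.94 to 2.77 in nM, and 12 of them were highest at ZT5 in both states.

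The threshold of the rule fell in a dense part of the ranking. Just inside it were BRI3BP, CITED4, PDIA3, SOD1 and AP3M2, with smaller differences of 0.92 to 0.91, and just outside were HPD and TAT, both enzymes of tyrosine breakdown, STARD10, RAP2C and RAB32, all at 0.91. TAT, for example, was at 4137 FPKM at ZT5 in M, against 1560.2 to 3564 FPKM, and at 6043 FPKM at ZT5 in nM, against 613 to 2664 FPKM. Only 63 of the 100 members stayed in the first 100 when the M ZT17 library was left out, and 43 stayed when ZT5 was set against the highest of the other times in place of their mean. Over all genes of the table, which ranked 8069, 54 stayed.

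Of 22 function lists, 9 held at least 1 member, and 72 members were in no list. Members made up 7 of the 35 ranked genes of oxidation, conjugation and bile acid enzymes (20.0%), 3 of 15 of nucleotide and polyamine synthesis (20.0%), 4 of 24 of fatty acid and triglyceride synthesis (16.7%), 5 of 42 of amino acid metabolism (11.9%) and 4 of 46 of splicing (8.70%), beside 3.03% of all ranked genes. The lists of solute carriers (2 of 69), endoplasmic reticulum folding (1 of 28, PDIA3), immediate early factors (1 of 30, BTG1) and membrane traffic (1 of 55, VAMP3) had shares nearer to 3.03%. All other lists had none. Among these were metabolic lists, namely fatty acid oxidation and ketone bodies (0 of 24), glycolysis, gluconeogenesis and glycogen (0 of 29) and sterol synthesis (0 of 13). The ribosomal, proteasome and clock lists were among them too. The ranked genes of amino acid metabolism as a whole had a median ZT5 difference of 0.68 in M and 0.38 in nM. Those of nucleotide synthesis were at 0.43 in M and 0.39 in nM. The splicing list was at −0.15 in M and −0.24 in nM, beside 0.02 in M and −0.17 in nM over all ranked genes. Every member had positive differences through the rule, so the opposite sign of the 4 splicing members follows from the selection. These counts describe a selection made on the same values and were not tested.

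None of the 12 ranked clock and clock output genes was a member, beside 3.03% of all ranked genes, and so short a list cannot show a lack. PER2, a light- and clock-driven repressor of the clock, exceeded 1 FPKM in only 7 libraries and so was not ranked. It was at 6.64, 8.58, 5.32, 0.630, 0.191 and 0.356 FPKM at ZT1 to ZT21 in M and at 13.9, 28.9, 13.6, 0.813, 0.633 and 1.51 FPKM in nM, highest at ZT5 and low in the dark in both. CRY1, its partner repressor, was highest at ZT13 in both states, at 72.3 FPKM in M and 158 FPKM in nM, and its ZT5 differences of 1.13 in M and 0.56 in nM left it outside the list.

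Whether the times next to ZT5 were also high was asked with the ZT5 libraries left out, by the mean of ZT1 and ZT9 against the mean of ZT13, ZT17 and ZT21, with state in the model. The rule did not set these times against each other, but it used all their values, and the members were drawn from genes called cyclic in the same libraries. That selection favours high values beside ZT5, so the counts over the members are a description. The members were higher at the flanking times by a median of 0.40 on the log2 scale, beside 0.07 over all 9566 genes tested and 0.07 over the 3301 ranked genes, and 72 of the 100 had a positive difference, beside 55.9% of all and 54.7% of the ranked genes. No member passed limma's adjusted p below 0.1 in either direction, where 1 of the 9566 genes did (0.0105%), and so no single member was shown to differ. At an unadjusted p below 0.05, 11 members were higher and none lower, beside 2.55% higher and 0.951% lower over all genes and 3.85% higher and 1.67% lower over the ranked genes. With FPKM rescaled to the same total, the medians were 0.61 for the members and 0.25 for all genes, and 88 members were positive.

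The 3 members with the smallest unadjusted p, chosen after their values were seen, were CYP3A5, HRG-2 and LRRC58. CYP3A5 had a log2 difference of 1.69 ± 0.42 (SE, limma), HRG-2 of 2.28 ± 0.63 and LRRC58, a leucine-rich repeat protein, of 1.40 ± 0.39, all with a limma adjusted p of 0.851. CYP3A5 was at 227 and 200.4 FPKM at the flanking M times, against 46.8 to 67.0 FPKM later. In nM it was at 209 and 125 FPKM, against 30.0 to 148 FPKM, so the groups overlapped at ZT13 there. The other way round, SLCO1B1 and NDUFB2 had negative flanking differences, of −0.81 ± 0.44 and −1.48 ± 0.92, with the M ZT17 library the highest of each.

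The rule did not set the states against each other, but it used the same values within each state. The state difference was tested for all 100 members in a limma fit over 9566 genes. A call was made at an adjusted p below 0.1 and a log2 difference above 0.1 in size. The rule required high values in the nM ZT5 library. That library was nearer in rank order to the M libraries than to its own state. The part of this selection in the counts over the members was not tested, so these counts are a description. 7 members were higher and 1 was lower in M than in nM livers. Over all genes 272 (2.84%) were higher and 620 (6.48%) lower in M. The members' median difference was 0.50, beside −0.08 over all genes, and 70 were positive, beside 45.1% of all genes. At an unadjusted p below 0.05, 27 members were higher and 2 lower in M, beside 9.62% and 15.6% of all genes. No member had all 6 M libraries above all 6 nM libraries, a separation that 0.784% of all genes showed. The rule works against this separation, as it requires a high nM ZT5 value, so the count is a description. Hepatocyte markers summed to 26064 to 76429 FPKM in M and 49238 to 137569 FPKM in nM. The M maximum was in the outlying ZT17 library, and the other M sums reached 42258 FPKM at most. These sums include TTR-1, at 23.5 to 145 FPKM in M and 10148 to 39552 FPKM in nM, so they do not compare hepatocyte content between states. Exocrine pancreas markers summed to 146 FPKM in the nM ZT5 library, against 8.48 to 69.8 FPKM in M and 8.51 to 123 FPKM at the other nM times. The part of these markers in the state differences was not tested.

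**Figure D4:**
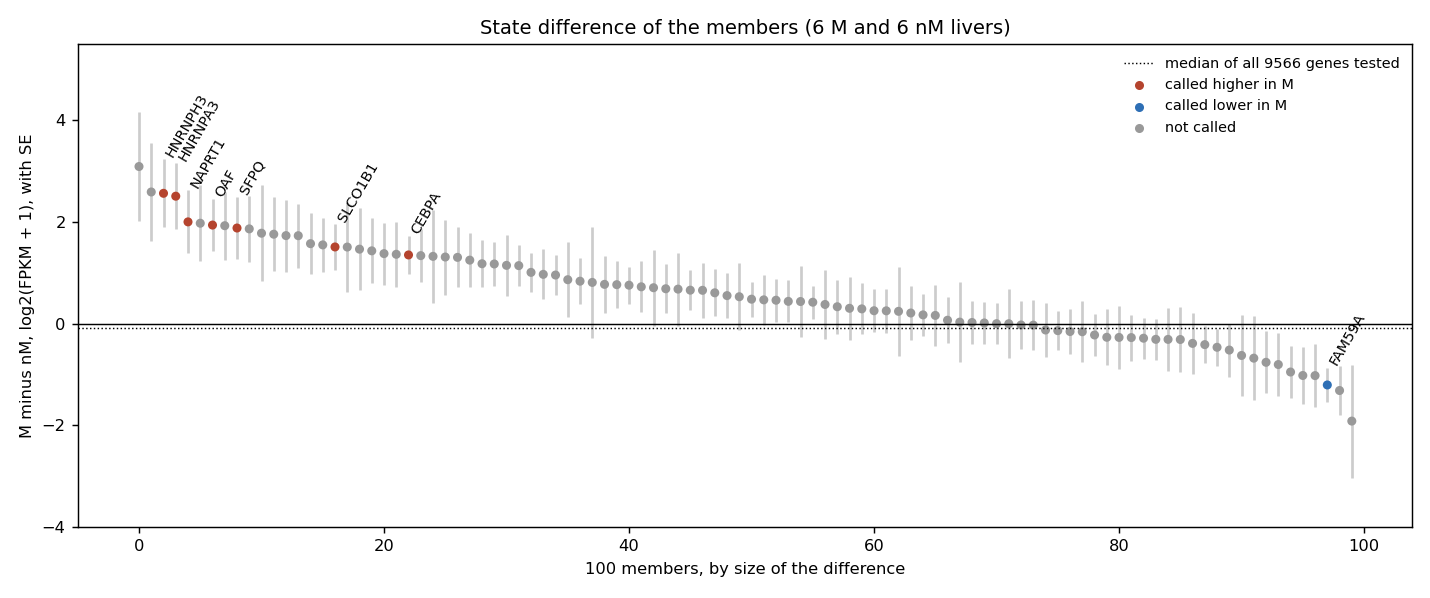
State difference (M minus nM, log2) of each of the 100 members in order of size, with limma standard errors as bars and the called members marked. The 7 members called higher in M lie between 1.35 and 2.56, the 1 called lower is FAM59A at −1.21, and the dotted line gives the median of all genes tested (−0.08).

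The called members came from several of the sets above. HNRNPH3 and HNRNPA3 were higher in M by 2.56 ± 0.67 (SE, limma adjusted p = 0.0522) and 2.50 ± 0.65 (0.0518), and SFPQ by 1.88 ± 0.61 (0.0943), on the log2 scale. All 3 bind RNA, and in each only the nM ZT5 library reached into the M range. NAPRT1 was at 10.6, 76.7, 32.9, 20.6, 144 and 36.8 FPKM at ZT1 to ZT21 in M and at 9.52, 37.0, 10.5, 6.74, 2.45 and 6.24 FPKM in nM. It was higher in M by 2.00 ± 0.62 (limma adjusted p = 0.085). OAF was at 21.1, 140.3, 71.6, 80.2, 23.1 and 47.2 FPKM in M and at 9.13, 44.0, 15.3, 12.3, 7.64 and 6.94 FPKM in nM, higher in M by 1.94 ± 0.51 (0.0536). CEBPA was at 28.2, 84.5, 33.5, 29.5, 32.8 and 31.9 FPKM in M and at 22.6, 31.0, 15.0, 9.52, 7.71 and 8.66 FPKM in nM, higher in M by 1.35 ± 0.37 (0.0601). For NAPRT1, OAF and CEBPA too, the states overlapped at nM ZT5 alone.

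SLCO1B1 was higher in M by 1.51 ± 0.45 (limma adjusted p = 0.0747), with overlap of its M ZT1 and ZT13 values and its nM ZT5 and ZT21 values. FAM59A, an adaptor of growth factor receptor signalling known as GAREM1, was at 4.79, 5.74, 3.37, 1.97, 0.840 and 2.75 FPKM at ZT1 to ZT21 in M and at 5.41, 16.3, 8.10, 9.46, 6.31 and 5.92 FPKM in nM. It was lower in M by a log2 difference of −1.21 ± 0.34 (0.066), and only its M ZT5 value reached into the nM range. Other members that the sets above describe missed the threshold in this fit, which has no term for time of day, such as THRSP (1.73 ± 0.71, 0.155), PPAT (1.78 ± 0.95, 0.252) and GART (−0.03 ± 0.49, 0.972).

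These calls depended on single libraries, as did those over all genes, whose share called higher is given in brackets. Members called higher in M numbered 24 without M ZT1 (8.09%), 0 without M ZT5 (0.303%) and 4 without M ZT9 (1.33%). They numbered 5 without M ZT13 (1.62%), 6 without M ZT17 (4.01%) and 4 without M ZT21 (1.76%). Of the nM libraries, leaving out ZT1 gave 1 (1.14%), ZT5 gave 30 (6.06%) and ZT9 gave 1 (1%). Leaving out nM ZT13 gave 2 (0.93%), nM ZT17 gave 0 (0.418%) and nM ZT21 gave 0 (0.335%). FAM59A lost its call without M ZT13 or M ZT21 and without nM ZT9, ZT13, ZT17 or ZT21, and without M ZT17 a further member, PSAT1, was called lower. With FPKM rescaled to the same total, HNRNPH3, HNRNPA3 and NAPRT1 remained called and no member was lower, beside 1.92% of all genes higher and 1.2% lower (184 and 115 genes). Leaving out nM ZT5 alone takes away a library in which the rule required high values, and so lowers the members' nM mean by construction. Leaving out M ZT5 alone lowers their M mean in the same way.

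With both ZT5 libraries left out, the fit rests on libraries in which the rule favoured low values in both states. There 16 members were higher and 1 was lower in M, beside 2.37% and 4.32% of all genes. 6 of the 7 members called over all 12 libraries were among the 16, and SLCO1B1 was not (limma adjusted p = 0.105). PPAT, RAD23B, NDUFB2, YME1L1, CREBL2, DAP, ALKBH5, HSD11B1L, ADH5 and VWCE were the others, and FAM59A was again the one lower. The difference between ZT5 and the other times in its state effect follows in part from the rule and was not tested.

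At ZT5 itself, where 1 library stands against 1, the members went either way between states. The median of M minus nM was 0.04 at ZT5 (−1.91 to 1.75), with 51 members higher in M, beside a median of 0.09 for the ranked genes. HRG-2, for example, was at 1095 FPKM in M and at 3839 FPKM in nM. At the other 5 times the median was 0.58 (−1.94 to 3.63), with 72 higher in M, beside −0.13 for the ranked genes. In 13 members the other 5 nM libraries all lay below all 6 M libraries. In each of these, nM ZT5 lay within the M range or above it. In no member did the other 5 nM libraries all lie above all 6 M libraries. The rule works against that, as it requires a high M ZT5 value. The mirror case, where only M ZT5 reached up into the nM range, was not counted, and FAM59A was 1 such member. Among all ranked genes, 2.91% had their other 5 nM libraries below all of M. The rule favours this arrangement, as low values at the other nM times raise the nM difference, so the share is a description. The 13 were RAD23B, PPAT, OAF, CREBL2, NDUFB2, DAP, CEBPA, NAPRT1, HNRNPH3, SFPQ, B5G047_TAEGU, HNRNPA3 and CITED4, named after their values were seen.

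**Figure D5:**
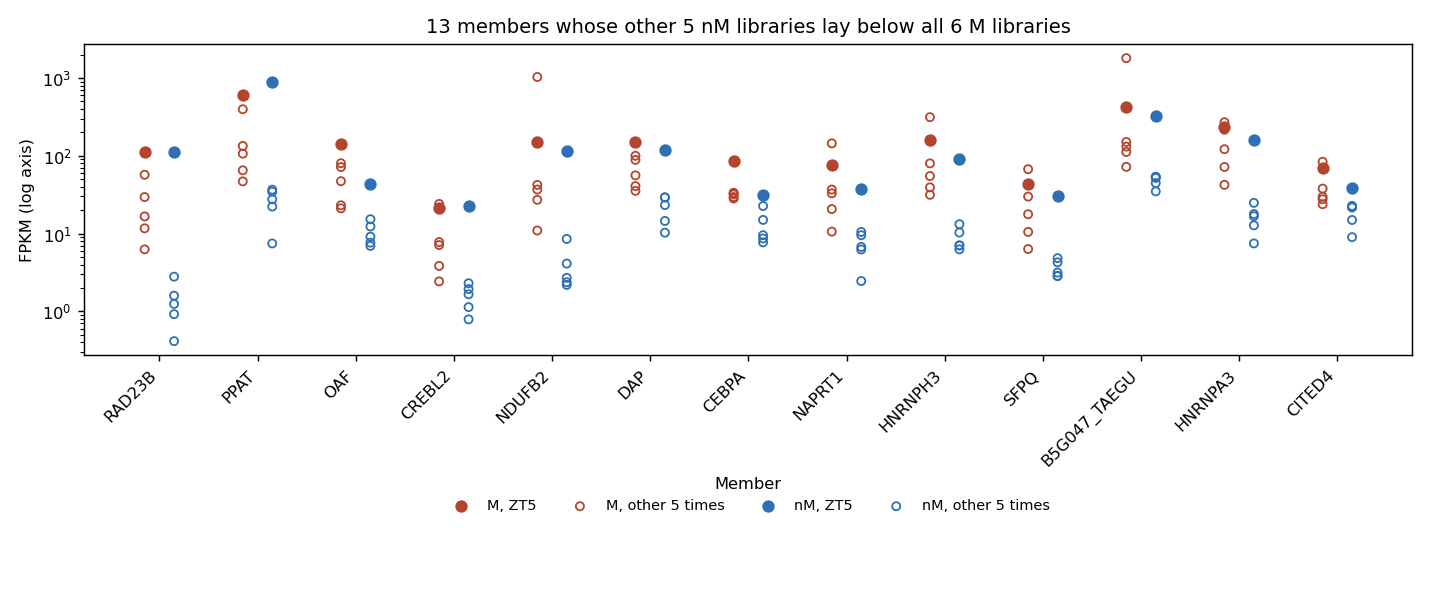
FPKM on a log axis of the 13 members whose other 5 nM libraries lie below all 6 M libraries, with 1 point a library, M left of nM, and the ZT5 libraries filled. In each gene the nM ZT5 point lies among or above the M points, as for RAD23B, with 112 FPKM in nM at ZT5, against 0.414 to 2.79 FPKM at the other nM times and 6.26 to 111 FPKM in M.

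The gene-level distance was large for some of the 13. RAD23B was at 112 FPKM in nM at ZT5, against 0.414 to 2.79 FPKM at the other nM times, beside 6.26 to 111 FPKM in M. PPAT was at 899 FPKM in nM at ZT5, against 7.46 to 36.7 FPKM, beside 46.9 to 600.3 FPKM in M. These 2 were the only ones of the 13 whose nM ZT5 value exceeded every M value. The same nM ZT5 library had the most reads of all 12 and was nearer in rank order to the M libraries than to its own, and the part of this in the pattern was not tested.

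The state difference varied among the function lists that hold members, beside 2.84% of all genes higher and 6.48% lower in M. Of 46 splicing genes tested, 8 were higher in M and none lower (SFRS6, SNRPB, HNRNPM, NONO, RNPS1 and the members HNRNPA3, HNRNPH3 and SFPQ), with a list median of 0.23. Of 37 oxidation, conjugation and bile acid genes, AKR1D1 and SLCO1B1 were higher in M and CYP7B1 was lower, with a median of 0.15. None of the amino acid members was called between states, and the 43 amino acid genes tested had a median of −0.01. Of 18 nucleotide and polyamine genes, none was called in either direction, with a median of 0.05. Of 25 fatty acid and triglyceride genes, none was higher and 2 were lower in M (LPIN2 and PNPLA2), with a median of 0.03. In these last 3 lists no member was called between states in the fit without a time term. The remaining lists that hold members had negative medians. Immediate early factors were at −0.41, with 0 of 40 genes higher and 3 lower in M. Endoplasmic reticulum folding was at −0.34, with 0 of 28 higher and 1 lower. Membrane traffic was at −0.32, with 1 of 57 higher and 3 lower. Solute carriers were at −0.09, with 4 of 84 higher and 3 lower. Of the lists with no member, the cytosolic ribosomal proteins had the highest median, 1.00, with 5 of 20 genes higher and none lower in M and all 20 positive. Mitochondrial ribosome and import had a median of 0.51, with 3 of 34 higher, none lower and 31 positive. Clock and clock output genes had the lowest median, −0.53, with 0 of 16 higher, 1 lower and 3 positive.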

How the data were processed

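Liver poly-A RNA was sequenced by the authors in a single lane, with RNA extracted in 1 batch. They removed adapters and ribosomal reads (Bowtie2 2.0.2), aligned reads with STAR to the genome of another species, the zebra finch, and computed FPKM with Cufflinks 2.2.1. The deposited FPKM values are scaled to mapped fragments and gene length, and the deposited log2 values equal log2(FPKM + 1) within 0.001 in all 134952 values of 11246 genes. No read counts per gene were used here. The depth given is the study's read total per library, and alignment to another species can lower the level of diverged genes. Gene symbols are those that the study's tables pair with the identifiers.

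Members and lists were chosen with earlier results of these data known, and the cyclic list was drawn by the study from the same libraries. All 22 function lists and 9 marker lists were written by hand, and the sets of members by role in the text were formed after their values were seen. Members were named if they were among the first 20 in rank, in a function list, called in a fit, or among the 5 nearest to the threshold on either side, and others were named for their role. limma 3.58.1 (R 4.3.3; tables made with pandas 2.3.3) was fitted to log2(FPKM + 1) over 9566 genes above 0.1 FPKM in at least 10 libraries, with Benjamini-Hochberg adjustment. A call needed an adjusted p below 0.1 and a log2 difference above 0.1 in size. The state fit used all 12 libraries, and the fit of flanking times used 10 with state as a term. All p-values are two-sided. The fits were tested on simulated data. Other pseudocounts, filters, scalings, covariates and left-out libraries were tried, and rescaling to the same total for membership and the peak times without M ZT17 were added after seeing the data. Promoter motifs were not analysed here, and some genes are not reported here.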

Additional observations from a re-analysis of the deposited data

Results flagged for a closer look

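In 24 groups of 6 values (library measures and called members, in each state) the highest or lowest value was set against the rest, and 6 stood apart by Dixon's criterion for a gap within the range. Chance alone flags about 1 in 20 such groups, and the ZT5 values of members were selected by the rule. The M ZT17 library had an FPKM sum of 6988410, where the next highest M library had 2793013, and a median level of the ranked genes of 4.02 in log2(FPKM + 1), where the next lowest had 4.17. The nM ZT5 library had 42651754 reads, where the next highest nM library had 18837970. CEBPA at M ZT5 was at 6.42 in log2(FPKM + 1), where the next highest M value was 5.11. HNRNPH3 at nM ZT5 was at 6.54, where the next highest nM value was 3.83. SFPQ at nM ZT5 was at 4.98, where the next highest nM value was 2.54.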

How the results depend on the processing

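The members' median state difference stayed positive in all 21 alternatives, between 0.30 and 0.85 when 1 library was left out, at 0.62 with FPKM divided by the median (0.04 for all genes) and at 0.29 with log10 of reads as a covariate. No result of the members reversed, but the counts of calls moved, and over all genes the median turned from −0.08 to 0.04 with FPKM divided by the median. Members higher in M numbered 4 with no filter on low values (all genes 228 higher and 589 lower). With FPKM rescaled to the same total, 3 members were higher and 0 lower. That scaling gave 184 of all genes higher and 115 lower, where the unscaled values gave 272 and 620. Members higher in M numbered 39 without M ZT1 and nM ZT5 (all genes 975 higher and 1536 lower). Without both ZT5 libraries they numbered 16 (all genes 227 higher and 413 lower). With log10 of reads as a covariate, 4 members were higher and 3 lower in M, and 128 of all genes were higher and 395 lower. Leaving out 1 library gave 0 to 30 members higher and 0 to 2 lower in M, and 29 to 774 of all genes higher and 171 to 1205 lower. For the flanking times, no alternative called a member. Over all genes, 3 were higher with no filter, 0 with FPKM above 1 in at least 10 libraries, and 0 were higher and 1 lower between light and dark times. Leaving out 1 library gave 1 gene higher throughout and 0 to 1 lower, and a members' median of 0.30 to 0.50. Of the 100 members, 43 stayed when ZT5 was set against the highest other time, 54 over all genes of the table, and 63 to 96 when 1 library was left out; 85 to 93 stayed under the other scalings and pseudocount.

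Libraries of the same time share the time of sampling but not the bird. The correlation of their deviations ran from 0.03 to 0.47, 3 of 6 pairs exceeded 0.1, and 5 of the 12 libraries correlated best with their own time. With time of day as a replicate block, 24 members were higher and 4 lower in M, beside 3.31% and 6.39% of all genes. That fit takes out the ZT5 variance on which members were selected. THRSP and PPAT were among the 24 and PSAT1 among the 4. No paired analysis was possible for the flanking times because the contrast is between times. With 1 bird a library and 6 libraries a state, small differences were not detectable, and FPKM keeps no count of reads per gene. The planned promoter motif counts were not run.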
